A study of Mus musculus with 3 samples.

Results

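The Egr, Nab and Nr4a genes are 8 genes in all, Egr1, Egr2, Egr3, Nab1, Nab2, Nr4a1, Nr4a2 and Nr4a3, out of 55536 annotated mouse genes. They were taken by symbol, whatever their level. All 8 reached 10 expected counts on average over the libraries, the minimum used here to call a gene measured, against 28.6% of all annotated genes. The RNA came from nuclei of bone marrow-derived macrophages of the C57BL/6J mouse strain, phagocytes grown in culture from marrow cells. All cells had been given 100 ng/ml Lipid A, a bacterial membrane lipid sensed by the receptor Tlr4, for 15 min. There was 1 group of 3 libraries (replicates 1, 2 and 3) and no untreated group was analysed here, so every value is a level at this time and none is a response. The labels give neither age nor sex of the animals, and they name the fraction as nucleus in one field and as nucleoplasm in another. They call the libraries biological replicates but list the same donor entry throughout, so their spread may be technical.

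Egr1, Egr2 and Egr3 encode zinc finger transcription factors whose genes are switched on within minutes of a signal, without new protein synthesis. The best known route runs through MAP kinases to Elk proteins and Srf on the DNA. Nab1 and Nab2 bind Egr proteins and repress their activity, and Nab2 is itself an Egr target, which makes it part of a negative feedback loop. Nr4a1 (Nur77), Nr4a2 (Nurr1) and Nr4a3 (Nor1) are orphan nuclear receptors, also made rapidly after a signal, through Creb and Mef2 factors among others. In macrophages, Egr and Nr4a genes are known early targets of Tlr4 signalling, and Nr4a receptors are known to restrain inflammatory genes.

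Annotated genes held 17345644 to 20947006 expected counts per library, that is, reads shared out among genes by a model. A count of 0 therefore allows up to 0.143 to 0.173 CPM (counts scaled to the library total), a limit that covers counting error only. The RNA input was 500 ng for replicate 2 and 1 µg for replicates 1 and 3. Protein-coding genes held 21.3% to 35.6% of all TPM (a level per transcript length), so the TPM of a coding gene also depends on the share that other RNAs take. TPM is used below for levels and for comparing genes, and CPM or log2 CPM for comparing libraries. All 10 macrophage markers were measured. Their median level was 213 ± 18.6 TPM (SD, n = 3), and none was 2-fold from both other libraries in any library. Marker lists of 8 other cell types had medians of at most 0.375 TPM, although single markers were higher.

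Start-site sequences were shown for the members whose windows held the letters of elements known from rapidly induced genes. The reference table, from RefSeq on build GRCm38.p6, had windows for 6 of the 8 members. Windows for Egr1 and Egr3 were not matched. In the 250 bases before each start, both strands were searched for the cyclic AMP response element TGACGTCA (bound by Creb), its core TGACG, which lies within it, GCGTGGGCG (the Egr site), CCGGAA (the Ets core, bound by Elk proteins), AAAGGTCA (the Nr4a monomer site) and the CArG box (bound by Srf). These motifs were chosen after the expression values had been seen. Of 32851 windows in the table, 17.8% held TGACG at least once and 0.137% held it at least 4 times, while 1.55% held TGACGTCA. The CArG box was in 1.47%, CCGGAA in 12.0%, GCGTGGGCG in 0.536% and AAAGGTCA in 1.34%. These shares are over all windows and were not matched for the content of G and C bases. That content was 61.6% in the Egr2 window shown, 74.4% in that of Nr4a1 and 80.0% in that of Nr4a2. For Nr4a3 and Nab1 it was 63.6% and 80.8%. The share among windows of like content was not taken. The following 3 windows overlap no annotated exon, and capitals mark the matches. The Egr2 window is chr10:67537619-67537868 on the plus strand and ends at the start of Egr2-201. The Nr4a1 window is chr15:101266596-101266845 on the plus strand and ends at the start of Nr4a1-201. The Nr4a2 window is chr2:57124004-57124253 on the minus strand and ends at the start of Nr4a2-203 and Nr4a2-206.
Egr2: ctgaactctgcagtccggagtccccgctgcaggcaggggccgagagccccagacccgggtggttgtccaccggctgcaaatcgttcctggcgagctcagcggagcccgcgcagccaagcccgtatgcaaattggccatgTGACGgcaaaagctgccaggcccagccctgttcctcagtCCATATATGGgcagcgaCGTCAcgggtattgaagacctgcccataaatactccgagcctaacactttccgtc
Nr4a1: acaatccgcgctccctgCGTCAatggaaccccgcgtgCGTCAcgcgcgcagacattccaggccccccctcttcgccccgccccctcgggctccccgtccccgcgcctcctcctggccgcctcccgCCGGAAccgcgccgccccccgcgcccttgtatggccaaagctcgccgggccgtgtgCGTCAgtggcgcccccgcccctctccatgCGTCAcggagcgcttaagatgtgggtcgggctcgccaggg
Nr4a2: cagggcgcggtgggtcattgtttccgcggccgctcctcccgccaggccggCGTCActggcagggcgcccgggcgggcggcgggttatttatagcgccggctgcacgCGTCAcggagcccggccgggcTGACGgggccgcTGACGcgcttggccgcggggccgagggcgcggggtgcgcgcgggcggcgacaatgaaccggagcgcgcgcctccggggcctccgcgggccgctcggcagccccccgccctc
The Egr2 window held 1 CArG box, 72 bases before the start, and TGACG on either side of it, at 111 and 55 bases. Another Egr2 window, before the start at position 67537566, held 1 CArG box and 3 matches to CCGGAA, of which the first and second overlap. The Nr4a1 window held TGACG 4 times, at 233, 213, 69 and 40 bases before the start, and CCGGAA once. Nr4a2 held TGACG 4 times, at 200, 144, 123 and 111 bases, and so did the Nr4a3 window, chr4:48045055-48045304 on the plus strand, at 231, 213, 205 and 147 bases. That Nr4a3 window overlaps annotated exons of Nr4a3-201 and Nr4a3-204. The window of the co-repressor gene Nab1 (chr1:52500449-52500698, minus strand), which overlaps an annotated exon of Nab1-201, held the Egr site GCGTGGGCG on both strands, at 141 and 109 bases before the start. Only 7 of the 32851 windows, whatever their content of G and C, held that motif at least 2 times. The Nab2 window held none of these letters, and none of the searched windows of members held TGACGTCA or AAAGGTCA. A match describes letters only and shows neither a bound site nor a cause of any level below.

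Egr1 (ENSMUSG00000038418.7, chr18:34859823-34864984, plus strand, GRCm38) was the Egr gene with the highest level. It stood at 125 TPM in replicate 1, 28.1 in replicate 2 and 151 in replicate 3, with a mean of 101 ± 64.8 TPM (SD, n = 3). These values came from 9688, 1739 and 15041 expected counts. Replicate 2 was far below the other libraries, and among the protein-coding genes of each library Egr1 ranked 203rd, 1885th and 135th by TPM. Egr2 (ENSMUSG00000037868.15, chr10:67535475-67542188, plus strand), a factor best known from Schwann cell myelination, stood at 15.1, 4.59 and 22.7 TPM, from 1035, 256 and 2003 counts. Its libraries had the same order as those of Egr1, with replicate 2 lowest and replicate 3 highest. Egr3 (ENSMUSG00000033730.4, chr14:70077203-70082614, plus strand), which limits T cell activation together with Egr2, stood at 2.72, 3.61 and 8.85 TPM, from 254, 261 and 1043 counts. Here replicates 1 and 2 were close and replicate 3 stood above both. Summed over the 3 genes, Egr TPM was 143, 36.3 and 183, and Egr1 made up 77.4% to 87.5% of it. The related zinc finger genes Egr4 and Wt1 had 0 counts throughout, so their level was at most the 0.173 CPM given above.

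The co-repressor genes were steadier. Nab1 (ENSMUSG00000002881.14, chr1:52457294-52500679, minus strand) stood at 10.4, 11.3 and 8.22 TPM in replicates 1 to 3, from 710, 769 and 630 counts. Nab2 (ENSMUSG00000025402.12, chr10:127660918-127668568, minus strand) stood at 10.6, 9.92 and 12.2 TPM, from 557, 466 and 782 counts. In replicate 2, the library in which Egr1 and Egr2 were low, Nab1 was at its highest and Nab2 at its lowest, at 0.781 of the other libraries by CPM. Their summed TPM moved little, between 20.4 and 21.2, with a mean of 20.9 ± 0.395 (SD, n = 3). That holds only for TPM over all RNAs. Scaled to protein-coding genes alone, Nab1 stood at 37.6, 31.8 and 38.5 and Nab2 at 38.6, 27.9 and 57.3. On that scale both were lowest in replicate 2. Nab2 was the only member that shares bases with other genes, all on the opposite strand: Nemp1 over 1668 bases, the antisense gene Gm16229 over 1646 and Stat6 over 40. Whether counting used the strand is not given in the sources used here, so Nab2 values are less certain. The deposited posterior SD of its count was 5.28 to 7.22 counts, and it was 0 for the other 7 members. An SD of 0 does not mean a settled level. The deposited bounds of Nr4a2 TPM, whose credibility level is not given, were 0.948 to 10.8, 1.81 to 14.9 and 2.10 to 6.28 in replicates 1 to 3.

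Among the receptors, Nr4a1 (ENSMUSG00000023034.7, chr15:101254269-101274795, plus strand) held nearly all of the signal. Its TPM was 50.8 in replicate 1, 56.1 in replicate 2 and 152 in replicate 3, with a mean of 86.1 ± 56.7 (SD, n = 3), from 1741, 1419 and 6771 counts. Replicate 3 was far above the others, whose values were close. Nr4a2 (ENSMUSG00000026826.13, chr2:57106830-57124003, minus strand), a factor needed for midbrain dopamine neurons, stood at 1.13, 2.14 and 2.39 TPM, from 71, 108 and 187 counts. Nr4a3 (ENSMUSG00000028341.9, chr4:48045153-48086447, plus strand) stood at 0.0600, 0.840 and 1.36 TPM, from 5, 70 and 71 counts. Its 5 counts in replicate 1 correspond to 0.270 CPM, with an exact 95% Poisson interval of 0.0877 to 0.630 that covers counting error only. The intervals in replicates 2 and 3 were 3.15 to 5.10 and 2.65 to 4.28 CPM, so these libraries overlapped each other and lay above replicate 1. By CPM replicate 2 was slightly higher and per length replicate 3 was, since the deposited effective length of Nr4a3 differed, at 4000 bases in replicate 2 and 1623 in replicate 3. Nr4a1 made up 96.7% of the summed Nr4a TPM on average.

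**Figure D1:**
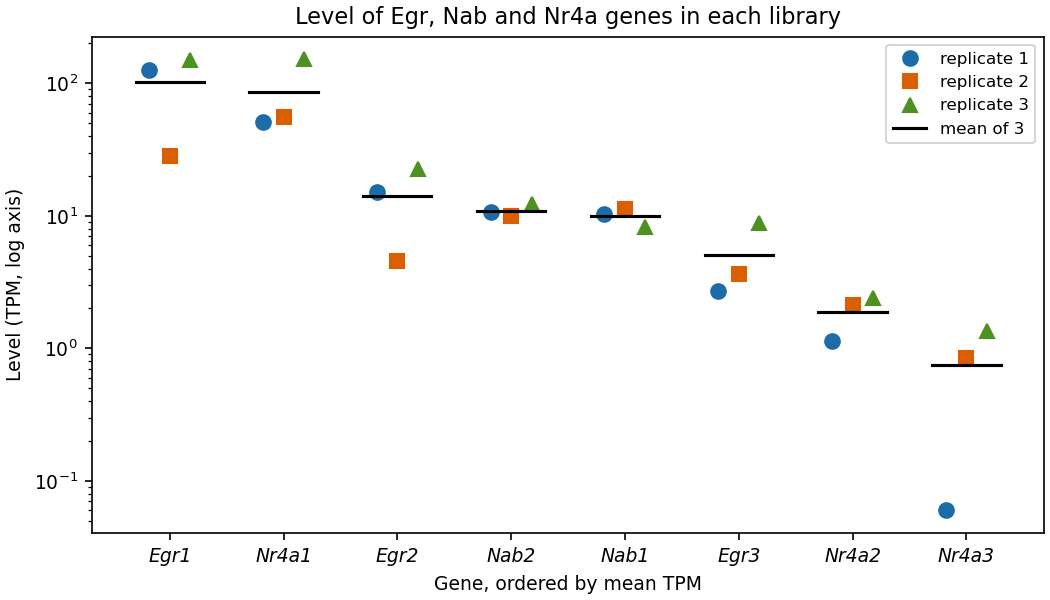
TPM of each Egr, Nab and Nr4a gene on a log10 axis, with a point for each of the 3 libraries and a line at their mean. Nab1 and Nab2 stayed within 8.22 to 12.2 TPM, whereas Egr1 ranged from 28.1 to 151 and Nr4a3 from 0.0600 to 1.36.

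Ordered by mean TPM, the genes ran from Egr1 through Nr4a1, Egr2, Nab2, Nab1, Egr3 and Nr4a2 to Nr4a3. Of measured protein-coding genes, 97.8% had a lower mean TPM than Egr1 and 10.7% a lower one than Nr4a3. Neighbours were compared by the difference of log2(TPM + 0.1) within each library. Nr4a1 was above Egr2 by 2.69 ± 0.92 (SD, n = 3) and Egr3 above Nr4a2 by 1.26 ± 0.56. Each held in 3 of 3 libraries, with no overlap of their ranges. The gap of Nr4a1 to Egr2 depended on short transcripts. With transcripts of at least 1000 nucleotides only, Nr4a1 stood at 24.88, 22.65 and 74.06 TPM. Egr2, with no TPM in shorter transcripts, stayed lower in each library but reached 22.72 in replicate 3, so the ranges then overlapped. Nr4a2 was above Nr4a3 in 3 of 3 libraries, by 1.66 ± 1.14, but their ranges over libraries overlapped. Nab1 was above Egr3 by 1.13 ± 1.08 on that scale, in 2 of 3 libraries. Egr1 and Nr4a1, Egr2 and Nab2, and Nab2 and Nab1 differed by less than their spread. Levels depended on the table: in the second deposited table mean TPM was 29.2 for Egr1, 77.8 for Nr4a1, 2.56 for Egr3 and 6.46 for Nr4a2. Protein-coding genes held 14.1%, 27.9% and 3.84% of TPM there in replicates 1 to 3. In the first table they held 27.5%, 35.6% and 21.3%, so TPM is not on the same scale in both. By counts Egr1 was higher in the second table, at 11145, 2814 and 17769. There the order of Egr3 and Nr4a2 was the opposite in replicate 2 (2.99 and 14.3 TPM) and in replicate 3 (2.77 and 3.41), and the same in replicate 1 (1.93 and 1.72). Scaled to protein-coding genes alone, the first table gave 414 for Egr1 and 351 for Nr4a1.

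For 4 pairs the log2 difference was also tested by flipping its sign in each library (exact permutation test, two-sided). The smallest p this allows with 3 libraries is 0.25, so that no pair could pass a threshold of 0.05 and no adjusted values are given. Egr1 was above its co-repressor Nab2 in 3 of 3 libraries, by 2.89 ± 1.21 on the log2 scale (SD, n = 3, exact p = 0.25). The ratio of Egr1 to Nab2 TPM was 11.8 in replicate 1, 2.83 in replicate 2 and 12.4 in replicate 3. Nr4a1 was above Nr4a3 in 3 of 3 libraries, by 6.97 ± 1.23 (SD, n = 3, exact p = 0.25). Egr1 and Nr4a1 were not ordered: their log2 difference was 0.10 ± 1.15 (SD, n = 3, exact p = 1), with TPM ratios of 2.47, 0.500 and 0.996. That difference depended on how short transcripts entered. With transcripts of at least 1000 nucleotides only, Egr1 stood at 125, 28.1 and 151 TPM and Nr4a1 at 24.9, 22.7 and 74.1, a log2 difference of 1.22 ± 1.02 (SD, n = 3, exact p = 0.25), an alternative added after seeing the data. In the second deposited transcript table the difference was -1.45, with Nr4a1 higher, and without replicate 1 it was -0.50. Nab1 minus Nab2 was -0.14 ± 0.39 (SD, n = 3, exact p = 0.75), with TPM ratios of 0.976, 1.14 and 0.673, and it was 0.075 without replicate 3.

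The 3 libraries differed more in the Egr and Nr4a genes than in most genes. The SD of log2 CPM over libraries (TMM-scaled, prior count of 2) was 1.57 for Egr1, 1.44 for Egr2, 1.14 for Egr3, 1.19 for Nr4a1, 0.70 for Nr4a2 and 1.99 for Nr4a3. For Nab1 and Nab2 it was 0.21 and 0.33. The median over 15876 measured genes was 0.32, against 1.16 over the 8 members. Of those genes, 98.9% varied less than Egr1, 97.0% less than Nr4a1 and 99.5% less than Nr4a3, while 29.1% varied less than Nab1 and 52.0% less than Nab2. In each strongly varying gene 1 library made most of the spread. Without replicate 2 the SD of Egr1 was 0.47 and that of Egr2 0.70. Without replicate 3 the SD of Egr3 was 0.14 and that of Nr4a1 0.094, and without replicate 1 that of Nr4a3 was 0.074.

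**Figure D2:**
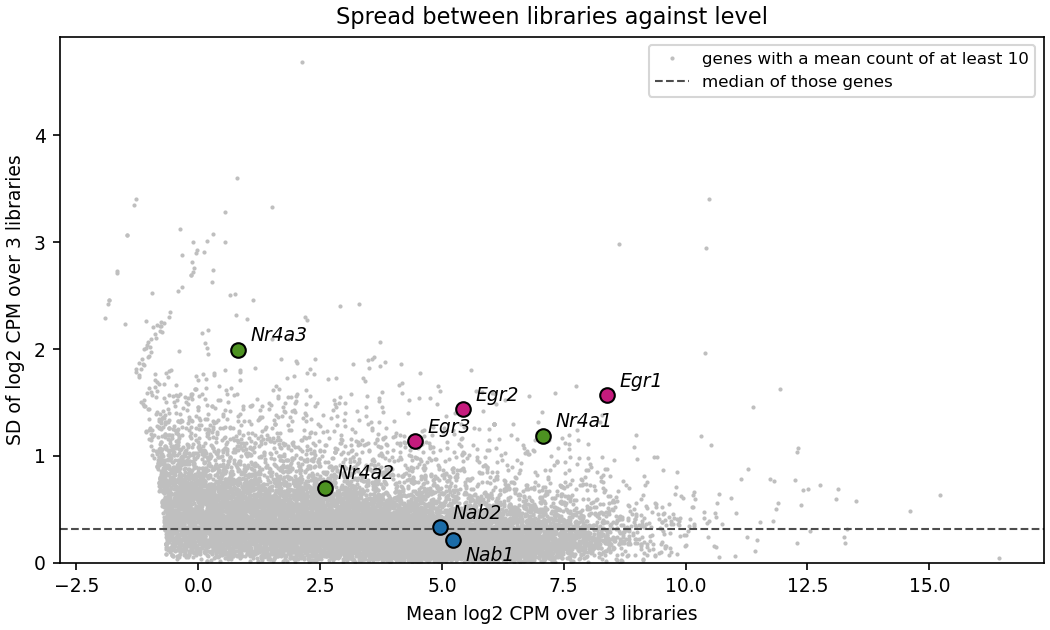
SD of log2 CPM over the 3 libraries (y axis) against mean log2 CPM (x axis) for the 15876 measured genes, with the 8 Egr, Nab and Nr4a genes named. The Egr and Nr4a genes lie between 0.70 and 1.99, above the median of 0.32, and Nab1 and Nab2 lie near it.

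A gene was called when its log2 CPM in 1 library was at least 1 (2-fold) above, or at least 1 below, both other libraries. This is a rule of size with no p-value, since each side has too few libraries. By it 5 of the 8 members were called in some library, against 13.2% of measured genes. Egr1 and Egr2 were below in replicate 2, at 0.159 and 0.198 of the mean of the other libraries, where 2.22% of measured genes were below. Egr3 and Nr4a1 were above in replicate 3, 3.90-fold and 4.16-fold, where 1.55% of measured genes were above. Nr4a3 was below in replicate 1, at 0.0914 of the others, where 3.22% were below. Nab1, Nab2 and Nr4a2 met the rule in no library. No member was called above in replicate 1 or 2 or below in replicate 3, where 4.86%, 0.857% and 1.39% of measured genes were called. Although the 2-fold calls fell on different libraries, replicate 3 was above the mean of the other libraries in all 6 Egr and Nr4a genes. It was 3.54-fold above for Egr1, 3.75-fold for Egr2, 2.04-fold for Nr4a2 and 3.13-fold for Nr4a3, beside the values given. The median of this log2 difference over all measured genes was -0.00398. For some genes a low library pulled that mean down. Log2 CPM of Egr1 was 9.61 in replicate 3 and 8.94 in replicate 1. Nr4a3 was slightly lower in replicate 3 (1.92) than in replicate 2 (2.03). With a 1.5-fold rule Egr1, Egr2, Egr3, Nr4a1 and Nr4a2 were all above both other libraries in replicate 3. The share of all measured genes that this looser rule calls was not taken, and the 2-fold shares do not apply to it. In replicate 3 Nab2 was 1.48-fold above the mean of the others and Nab1 at 0.826 of it. In bulk RNA, fewer cells carrying a transcript and less of it per cell cannot be told apart.

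**Figure D3:**
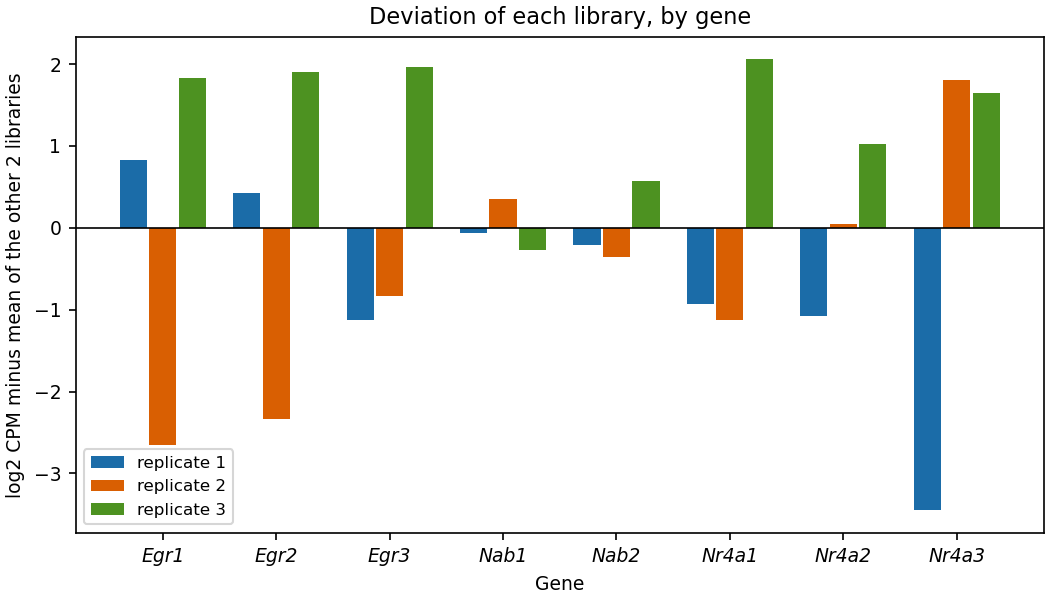
Difference of log2 CPM in each library from the mean of the other libraries, for each Egr, Nab and Nr4a gene, with a line at no difference. Egr1 and Egr2 lie at -2.65 and -2.34 in replicate 2, Nr4a1 at 2.06 in replicate 3 and Nr4a3 at -3.45 in replicate 1.

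The genes most like each member were those with the smallest root mean square (RMS) difference of centred log2 CPM, among 9006 or 9007 protein-coding genes whose counts averaged at least 100. With only 3 points per gene this is a description of these libraries. Egr1 and Egr2 were near each other, at an RMS of 0.20, and both were near Nfkbia, which encodes the NF-κB inhibitor IκBα, at 0.20 and 0.18. Egr3 and Nr4a1 were near each other, at 0.14. Egr3 was nearest to the stress gene Gadd45b, at 0.10, and to Cd83, a surface marker of activated cells, at 0.12. Nr4a1 was nearest to Lars2, a mitochondrial leucyl-tRNA synthetase gene, at 0.12, and to Gm17334, which overlaps Irf1 on the opposite strand, at 0.15. Nr4a3 had no close match, with Kynu, Dnah2 and Ifitm1 at 0.25, 0.26 and 0.31. Nab1 and Nab2 had many close neighbours, led by Prpf39, Akap17b and Atxn3 for Nab1 and by Triobp and Acadvl for Nab2, at 0.0038 to 0.010. For Nr4a2 these were H2-Ab1, Csnk1e and Tmem86a, at 0.024 to 0.036.

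The transcript tables divide each gene's counts among annotated transcripts. Egr1-202 took 79.2% ± 4.29 (SD, n = 3) of the Egr1 counts and Egr2-201 82.3% ± 11.1 of those of Egr2, both protein-coding. For Egr3 the transcript annotated as retaining an intron, Egr3-202, took 54.8%, 52.6% and 54.5% in replicates 1 to 3, although the level of the gene in replicate 3 was far above the others. The coding Egr3-204 took 44.6%. Over 7231 measured genes with such a transcript the median share was 19.3%, and 85.4% of them had a lower share than Egr3. Only 157 of the 3876 bases of Egr3-202 lie in the intron of Egr3-204 (chr14:70077599-70078895, plus strand, 1297 bases), so few bases separate the models. Nr4a1-204, also annotated as retaining an intron, took 16.9%, 23.1% and 17.3% of the Nr4a1 counts, near the median gene. It has 893 bases, of which 654 lie in an intron of Nr4a1-201 (chr15:101273194-101273995, plus strand, 802 bases). By TPM, which weights short transcripts up, it stood at 17.5, 23.4 and 51.4, against 24.2, 22.4 and 74.1 for Nr4a1-201. The exon borders that these transcripts read through are shown with intron bases in capitals and coding exon bases in lower case, at chr14:70078876-70078915 for Egr3 (the 3′ end of its intron) and chr15:101273174-101273213 for Nr4a1 (the 5′ end), both plus strand, GRCm38.
Egr3-202: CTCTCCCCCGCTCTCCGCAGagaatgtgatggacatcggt
Nr4a1-204: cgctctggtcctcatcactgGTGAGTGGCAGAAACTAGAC
Both carry the usual intron ends, AG before the Egr3 exon and GT after the Nr4a1 exon.

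Shares were less settled for the low genes. Nr4a2-206, annotated for nonsense-mediated decay, took 42.7% ± 15.1 (SD, n = 3) of the Nr4a2 counts, and Nr4a2-203, which is coding, 34.0%, although in replicate 3 the coding Nr4a2-201 took the most, 38.0%. The second table had the opposite order, 27.0% for Nr4a2-206 and 42.1% for Nr4a2-203. Nr4a3-203 took 84.6%, 70.9% and 18.2% of the Nr4a3 counts, where replicate 1 had only 5 counts. The co-repressor gene Nab1 had 66.1% in Nab1-201 and 1.25% in its retained-intron transcript, and Nab2 had 63.9% ± 14.0 in Nab2-201. The second deposited table put 68.7% of Egr3 counts in Egr3-202 and 15.9% of Nr4a1 counts in Nr4a1-204. It gave Egr2-201 a lower share, 58.7%, and Egr2-203 34.8% against 13.2% in the first table. It placed only 33.0% of Nab1 in Nab1-201 and 59.3% in Nab1-205, the reverse of the first table, in which Nab1-205 had 23.9%.

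**Figure D4:**
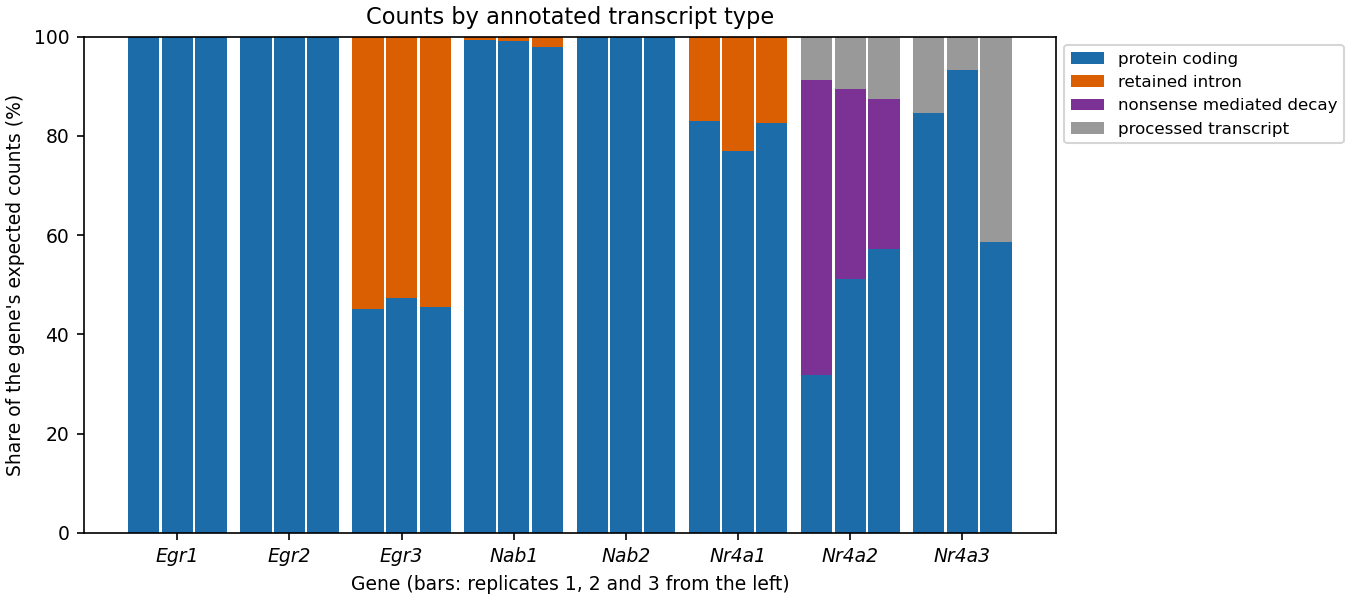
Share of each gene's expected counts (y axis, percent) by annotated transcript type, with 3 bars per gene for replicates 1 to 3. Retained-intron models took 52.6% to 54.8% of Egr3 and 16.9% to 23.1% of Nr4a1, and models for nonsense-mediated decay appear only in Nr4a2.

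Genes that act before or with these factors were all measured, and none met the 2-fold rule, which 13.2% of measured genes did. The lowest of the 10 inputs of the Egr genes was Srf, the CArG box factor, at 5.73 ± 2.43 TPM (SD, n = 3). Srf had 387, 162 and 306 counts in replicates 1 to 3, lowest in replicate 2 as Egr1 was, but within the rule. The 10 inputs of the Nr4a genes ran from the Mef2 factor gene Mef2a at 64.2 ± 26.5 TPM down to Hdac7, a repressor of Mef2 factors, at 2.92 ± 1.35. The 7 partner genes ran from Chd4, a chromatin remodeller that Nab proteins bind, at 56.3 ± 3.54 TPM to Rxra, a receptor that pairs with Nr4a1 and Nr4a2, at 8.99 ± 0.550.

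Of 12 textbook Egr1 targets 11 were measured and 4 met the rule in some library, as did 13.2% of all measured genes. The cytokine gene Tnf had 13005, 1863 and 8269 counts and was below in replicate 2, as Egr1 and Egr2 were. Gdf15, a stress cytokine gene, had 2242, 931 and 6273 counts and was both below in replicate 2 and above in replicate 3. The adhesion gene Icam1 was above in replicate 3, with 1740, 1269 and 3626 counts, and the angiogenic gene Vegfa below in replicate 1, with 2153, 5589 and 9416. The lowest target was the tissue factor gene F3, with 3, 2 and 5 counts. At 15 min these values describe RNA present together, and whether Egr1 protein acted on any target was not tested.

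The AP-1 genes, another family of rapidly induced factors, served as a comparison. Fos, the highest, had 9063, 8727 and 14084 counts and met the rule in no library. In replicate 2 it stood at 0.854 of the other libraries, where Egr1 stood at 0.159. Jun, with 7190, 3121 and 11447 counts, was below in replicate 2. Fosb, with 705, 2206 and 5924 counts, was below in replicate 1 as Nr4a3 was and above in replicate 3 as Egr3 and Nr4a1 were. Fosl1 had 1, 0 and 0 counts. Of the 8 AP-1 genes 7 were measured and 2 met the rule, against the same 13.2%.

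**Figure D5:**
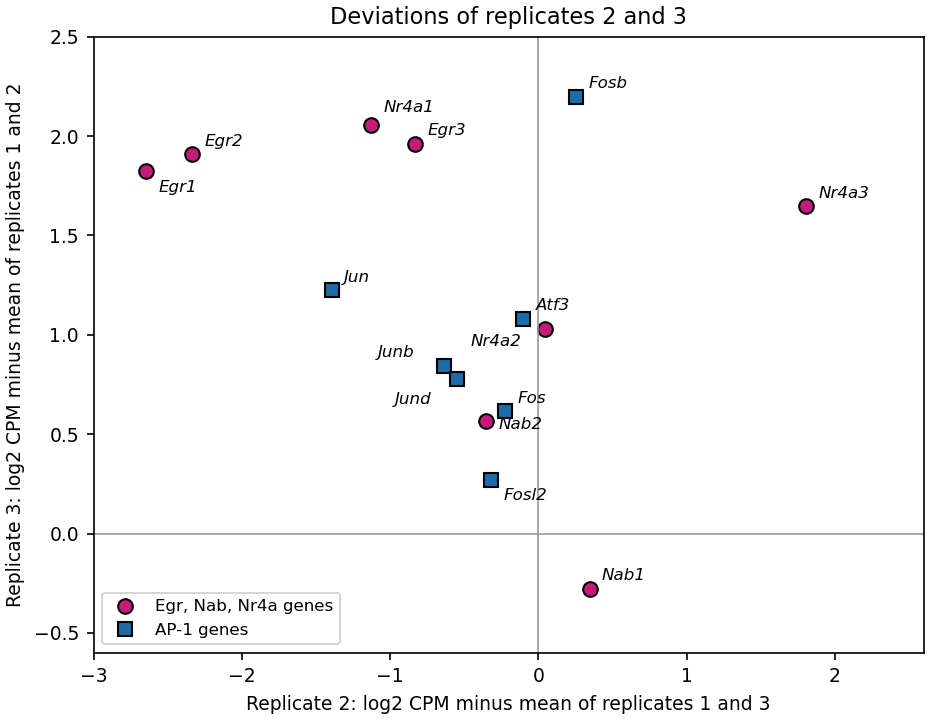
Deviation of replicate 3 (y axis) against that of replicate 2 (x axis), each as log2 CPM minus the mean of the other libraries, for Egr, Nab and Nr4a genes (circles) and AP-1 genes (squares). Egr1 and Egr2 lie far left at -2.65 and -2.34, and Fos lies near the centre at -0.23. The axes share libraries, so a downward trend is partly built in.

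Markers of other cells were set beside the calls. Of 7 T cell markers 2 were measured, Cd28 and Cd4. Both were below in replicate 1, as Nr4a3 and 3.22% of measured genes were. Counts were 5231, 11526 and 10864 for Cd28 and 736, 1762 and 1762 for Cd4. The summed level of that list was 67.0, 179 and 111 TPM. The defining T cell gene Cd3e had 0 counts in every library, and Cd3d and Cd3g had at most 3. Of 6 endothelial markers 4 were measured, Vwf at 27.0 ± 7.22 TPM (SD, n = 3), Kdr at 4.23 ± 0.420, and Pecam1 and Cdh5 below 1, with a summed level of 24.4, 38.6 and 33.2 TPM. Cdh5 was above in replicate 1, as were 4.86% of measured genes, with 18, 6 and 6 counts. Vwf stood in replicate 1 at 0.499 of the other libraries without meeting the rule. The part of any other cell type in the low Nr4a3 of replicate 1 was not tested. No B cell marker was measured, and 1 of 7 neutrophil markers was, at 27 to 29 counts. Of 5 dendritic cell markers 4 were measured, led by Zbtb46 at 0.943 ± 0.448 TPM, and none met the rule. Their median log2 deviation from the other libraries was -0.616 in replicate 1, 0.806 in replicate 2 and 0.102 in replicate 3. Mast cell, fibroblast and erythroid lists had 1 measured marker each, Kit, Col1a1 and Alas2, and none met the rule. Kit had 38, 63 and 109 counts. Replicate 2, in which Egr1 and Egr2 were below, had the fewest counts and the smallest RNA input. Jun, Tnf and Gdf15 were also below in it, as were 2.22% of measured genes, whereas Fos, Nab1 and Nab2 were not called. The part of depth or input in these calls was not tested.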

How the data were processed

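Total RNA depleted of ribosomal RNA was sequenced by the submitters from the nuclear fraction, in 3 libraries. Per the file headers, the deposited gene and transcript tables hold expected counts and TPM with the column names that RSEM writes, and a second deposited transcript table holds estimated counts and TPM with the names that kallisto writes. The deposited posterior SD of a count and the credibility interval bounds of TPM were treated as scores, per the file headers. The submitters' processing notes name build mm10 and annotation GENCODE M21. The use of strand, like the versions, was not given in the sources used here. Rows naming no gene held 1.24%, 0.372% and 0.0641% of counts in replicates 1 to 3 and were left out.

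Expected counts were rounded. Log2 CPM came from edgeR 4.0.16 with TMM factors of 1.07, 1.02 and 0.921 and a prior count of 2, for the 15876 genes that averaged 10 or more counts. edgeR's model was used for scaling only. Levels were compared as log2(TPM + 0.1), which understates differences of low genes. Input and target genes were taken from fixed lists, and of each list the highest, the lowest and those past the 2-fold rule with a member were named. Some genes that these rules pick are not reported here. The gene nearest in pattern was sought among genes averaging 100 or more counts. The members and lists were chosen with earlier results of these data known. The 2-fold rule was tried on simulated counts, with a spread between libraries set below that estimated from these data. That trial therefore gives no rate of false calls here. Alternatives were DESeq2 size factors, total counts, no filter, other pseudocounts, the second table, a 1.5-fold rule, each library left out and transcripts of at least 1000 nucleotides. P-values measure only the spread between these samples.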

Additional observations from a re-analysis of the deposited data

How the results depend on the processing

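Of the 4 tested differences, Egr1 minus Nr4a1 and Nab1 minus Nab2 changed direction. Egr1 minus Nr4a1, 0.10 on the log2 scale, was -1.45 in the second transcript table and ranged from -0.50 to 0.65 as each library was left out. Nab1 minus Nab2, -0.14, ranged from -0.30 to 0.075, and was 0.075 without replicate 3. The differences of Egr1 from Nab2 and of Nr4a1 from Nr4a3 kept their direction under every alternative run. The causes were not tested. The number of members past the 2-fold rule was 5 under DESeq2 size factors, total counts and no filter, and 6 in the second table and at 1.5-fold. The share of all measured genes was taken for the main 2-fold rule only, so the counts under these alternatives have no share beside them. The second table added Egr2 above in replicate 3 (2.09) and Nr4a2 below in replicate 1 (-1.44), and the 1.5-fold rule added Egr1 (1.83), Egr2 (1.91) and Nr4a2 (1.03) above in replicate 3 and Nr4a2 below in replicate 1 (-1.08). With 50 counts as the minimum mean, 7 members were measured, without Nr4a3. No paired analysis was possible because there is 1 group, so no groups could be paired by replicate. Differences between genes were taken within each library. With 3 libraries, no untreated sample and 1 donor entry, the data show levels and their spread, and no response to Lipid A.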
